A study of Homo sapiens with 6 samples.

Results

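The genes described here are those of the MHC class I heavy chains and of peptide loading: HLA-B, HLA-C, HLA-E and HLA-F, the light chain gene B2M, the transporter genes TAP1 and TAP2, the tapasin gene TAPBP, and NLRC5. They were taken as a list of 9 genes of the 19740 that the array measures by name, and a probe was a member when its RefSeq accession belonged to 1 of them. This gave 15 probes of 34127 on the array, and all 15 were among the 27624 probes that were bright enough to be tested. RNA came from CAL-27, an established human line of tongue squamous carcinoma, and was labelled with Cy3 and read on 6 Agilent 1-colour arrays. In shXBP-1s (n = 3) the cells stably carried an shRNA against XBP-1s, the spliced form of the stress factor XBP1, and in shCtrl (n = 3) they carried the control shRNA. Both groups were otherwise untreated as far as the labels say. The sources used here do not state whether a group was 1 clone or a pool, or whether the 3 samples of a group came from separate cultures, so the p-values measure the spread between these samples, which may be technical. The comparison bears on whether class I subunit, TAP and related transcripts change when XBP-1s is knocked down.

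MHC class I molecules display peptides from inside the cell to CD8 T cells. A heavy chain folds with beta-2-microglobulin in the endoplasmic reticulum and is held there by tapasin next to TAP, the pump made of TAP1 and TAP2, until a peptide that the proteasome has cut and TAP has carried in binds to it. HLA-B and HLA-C are classical chains, whereas HLA-E, a ligand of the natural killer cell receptor NKG2A, and HLA-F are non-classical. NLRC5 is the transactivator of class I genes and acts with the RFX, CREB and NF-Y factors at their promoters, and interferon gamma raises most genes of the pathway through IRF1 among other factors.

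The promoter letters of 4 members are shown because their probes carry the main contrast below, namely the chains of the complex (HLA-B and B2M) and both transporter subunits, which the arrays set apart. Each window holds the 180 bases upstream of the RefSeq gene start in GRCh38.p14, read 5′ to 3′ on the strand of the gene, with the motifs found by the search in capitals.
HLA-B, chr6:31357180-31357359, minus strand: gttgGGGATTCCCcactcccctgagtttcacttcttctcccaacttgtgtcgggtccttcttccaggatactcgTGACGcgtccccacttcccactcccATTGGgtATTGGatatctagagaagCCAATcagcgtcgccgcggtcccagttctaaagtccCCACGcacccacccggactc
B2M, chr15:44711337-44711516, plus strand: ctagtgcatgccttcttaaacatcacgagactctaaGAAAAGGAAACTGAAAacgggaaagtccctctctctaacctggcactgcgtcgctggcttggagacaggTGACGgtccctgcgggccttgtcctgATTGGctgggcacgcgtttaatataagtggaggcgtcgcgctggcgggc
TAP1, chr6:32853705-32853884, minus strand: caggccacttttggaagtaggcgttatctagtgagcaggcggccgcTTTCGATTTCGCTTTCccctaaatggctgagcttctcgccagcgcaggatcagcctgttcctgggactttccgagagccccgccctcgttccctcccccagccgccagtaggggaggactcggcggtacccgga
TAP2, chr6:32838740-32838919, minus strand: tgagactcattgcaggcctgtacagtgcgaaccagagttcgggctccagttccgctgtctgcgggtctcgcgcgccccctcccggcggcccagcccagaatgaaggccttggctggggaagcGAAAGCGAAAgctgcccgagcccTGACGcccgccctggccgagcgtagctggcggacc
The motifs searched, on both strands, were the core of the interferon-stimulated response element (TTTC, any 2 bases, TTTC), GGGATTCCC (kappa B), TGACG (the core of the cAMP response element, bound by CREB), CCAAT (NF-Y) and CCACG (a core of XBP1 and ATF6 sites). Matches of the first motif overlapped each other in B2M, TAP1 and TAPBP, and no others overlapped.

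Promoter windows were at hand for 7 of the 9 genes, all but HLA-E and NLRC5. The interferon response core stood in 5 of the 7 (HLA-F, B2M, TAP1, TAP2 and TAPBP), against 2.15% of 35116 RefSeq windows of the same length. Only exact matches to the core were counted. The HLA-B and HLA-C windows both hold TTTCACTTCT, a near match that the search left out. Their lack of an exact match therefore does not show that they lack an interferon response element. TGACG stood in HLA-B, HLA-C, B2M and TAP2 (17.3% of all windows), and CCAAT in HLA-B, HLA-C, HLA-F and B2M (26.2%). The kappa B letters were found in HLA-B (0.268% of all windows). CCACG was found in HLA-B and HLA-F and stood in 26.6% of all windows. TAP1 and TAP2 thus shared the interferon core, which lay at -134 to -119 from the gene start in TAP1 and at -58 to -49 in TAP2, and TAP2 also held a TGACG. The motifs were searched because class I promoters are known for them, so these shares describe the letters and say nothing of binding in these cells.

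**Figure D1:**
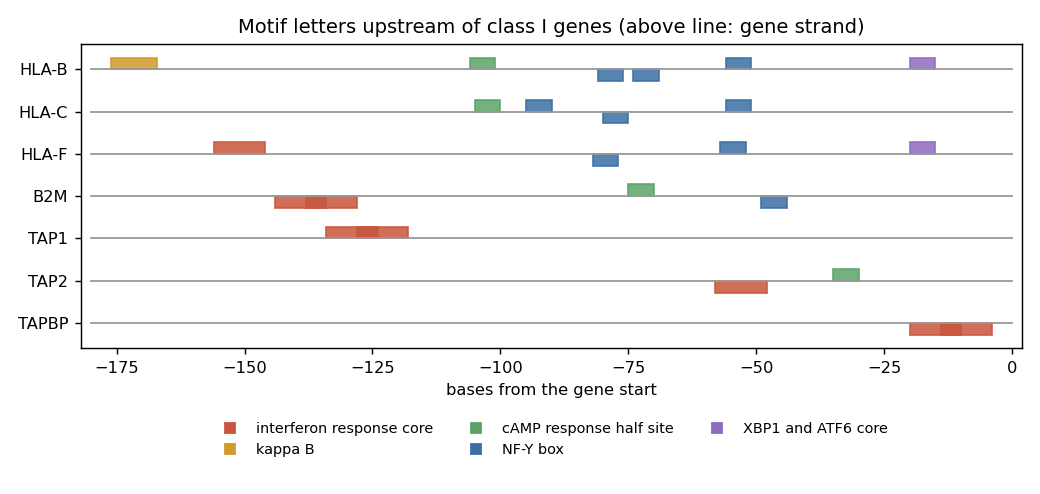
Position of the motif letters in the 180 bases upstream of 7 class I genes (x axis, bases from the gene start; 1 line per gene). Boxes above a line lie on the strand of the gene and boxes below it on the other strand. An exact match to the interferon response core (red) is seen in 5 genes and the NF-Y box (blue) in the 3 heavy chain genes and B2M.

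XBP1 itself, by its 1 probe, gave signals of 2534.2, 2743.1 and 2760.7 in shCtrl and 695.3, 617.1 and 550.8 in shXBP-1s. The fall in XBP1 signal fits the labels, but whether this probe tells the spliced form from the unspliced was not examined. The values below are log2 signals relative to the 75th percentile of the array, and a fold change is the mean of shXBP-1s minus that of shCtrl on this scale. That percentile was 687.4 to 761.3 on the shCtrl arrays and 792.0 to 983.4 on the shXBP-1s arrays. On each array 82.1% to 84.8% of spots exceeded the background clearly, and none was saturated. The files give shCtrl replicates 2 and 3 one scan identifier and shCtrl replicate 1 and all shXBP-1s arrays another, so a comparison within a scan rests on shCtrl replicate 1 alone. All 7 squamous epithelium markers were well above background on the 6 arrays, with a summed raw signal of 41768.9 to 45804.1 in shCtrl and 60340.1 to 67963.9 in shXBP-1s. All 6 leukocyte genes also had a probe well above background throughout, and their summed raw signal was 3504.8 to 5251.3 in shCtrl and 2959.6 to 3928.1 in shXBP-1s. Of the fibroblast markers 3 of 4 were well above background (COL3A1 on no array), with raw sums of 177.1 to 193.2 and 260.6 to 301.5 (on the scaled log2 values LUM was higher by 1.94, COL1A1 was at -0.63 and COL1A2 at -0.07), and of the endothelial markers 3 of 3, with raw sums of 167.7 to 194.0 and 207.9 to 272.1, none called by its brightest probe (adjusted p = 0.155 for CDH5, 0.502 for PECAM1 and 0.388 for VWF). The part of these shifts in the class I values was not tested. All samples came from the CAL-27 line. A change in the share of its cells that express a gene and a change in RNA per cell cannot be told apart in bulk RNA.

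Most class I transcripts changed little after XBP-1s knockdown, with TAP2 as the exception. By limma with Benjamini-Hochberg adjustment over all tested probes, 2 of the 15 member probes (13.3%) passed an adjusted p of 0.05, both lower in shXBP-1s: the main TAP2 probe and the dimmer HLA-F probe. Over all tested probes the share was 41.7%, with 23.3% lower and 18.4% higher. None of the 15 also changed by at least 2-fold, which 4.9% of all tested probes did, 2.61% lower and 2.29% higher. Without adjustment, 8 of the 15 passed a p of 0.05. The share of all tested probes that did so was not counted. It cannot be below the 41.7% that passed with adjustment, so the 8 are not evidence of an excess. The arrays of the groups did not overlap in 7 of the 15 probes, 5 lower and 2 higher, against 52.4% of all tested probes, 28.5% lower and 23.9% higher.

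The sizes of the changes show the same. The median log2 fold change of the member probes was -0.11, against -0.02 over all tested probes, and 14 of the 15 lay within 0.30 of 0 in either direction after rounding to 2 decimals, whereas 39.1% of all tested probes had moved by more. The 95% interval of the change stayed within 2-fold for all 15 probes and within 1.5-fold for 14, all but the main TAP2 probe. The sign of such small changes moved with the scaling of the arrays: 12 of the 15 probes were below 0 here, but 13 were above 0 when the arrays were not scaled at all.

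**Figure D2:**
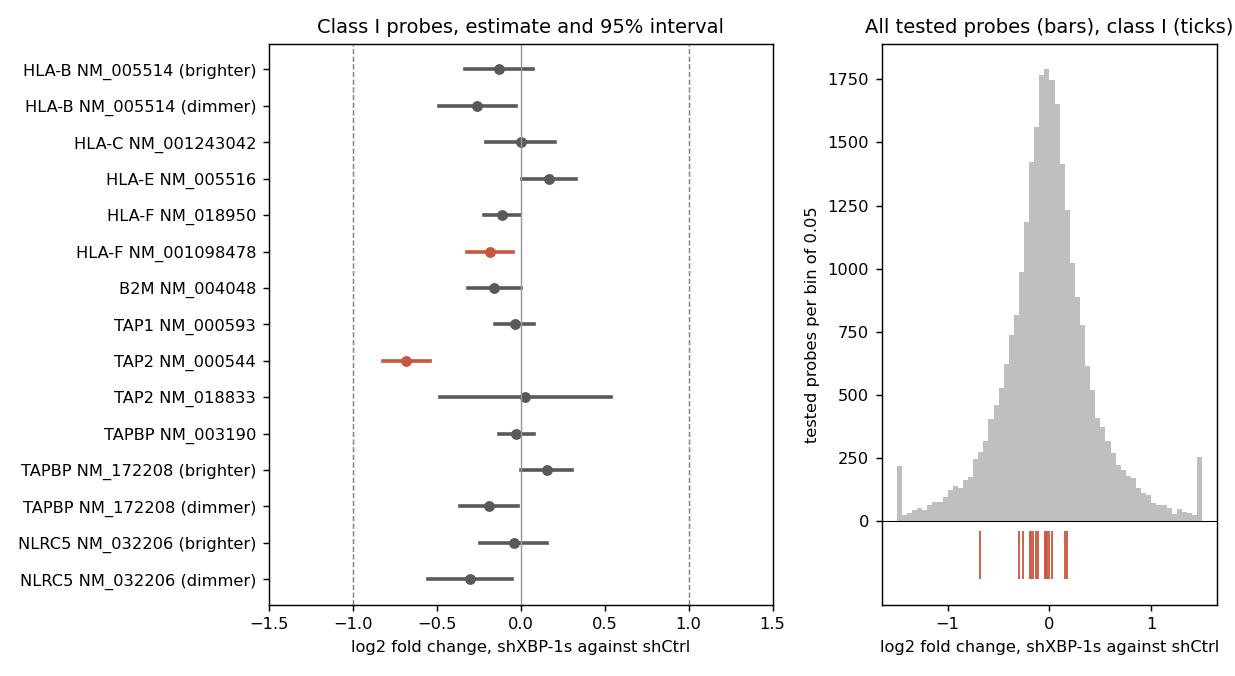
Left, log2 fold change of shXBP-1s against shCtrl for the 15 class I probes with its 95% interval, in red where the adjusted p is below 0.05; dashed lines mark 2-fold. Right, the number of tested probes per bin of log2 fold change (bars, with values beyond the axis placed in the end bins) and the class I probes as red ticks. The TAP2 probe at -0.68 stands apart from the other 14, which lie within 0.30 of 0.

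Among the heavy chains, the classical HLA-B and HLA-C were among the bright probes of the arrays and neither was called. Across shXBP-1s replicates 1 to 3 the 75th percentile fell from 983.4 to 894.5 and 792.0. The raw signal of the brighter HLA-B probe varied less, at 77427.1, 78554.8 and 74595.5, as did those of HLA-C and B2M. Their scaled values therefore rose from replicate 1 to 3. The dimmer HLA-B probe varied more, from 42538.6 to 62803.2. Whether the brightest signals were compressed was not tested. The brighter HLA-B probe read 6.62, 6.44 and 6.65 in shCtrl replicates 1 to 3 and 6.30, 6.46 and 6.56 in shXBP-1s. Its groups overlapped, and the mean went from 6.57 ± 0.11 to 6.44 ± 0.13 (SD, n = 3 each), a log2 fold change of -0.13 (SE 0.086, adjusted p = 0.271). The dimmer HLA-B probe read 6.17, 6.10 and 6.25 in shCtrl and 5.86, 6.13 and 5.75 in shXBP-1s. There 1 shXBP-1s array lay among the controls and 2 lay below them, and the log2 fold change was -0.26 (SE 0.10, adjusted p = 0.0725). The changes of the HLA-B probes differed by 0.13, with overlap between the groups in that difference (exact permutation test, p = 0.7). With 3 arrays against 3 this test cannot go below 0.1, so it does not show that the probes of a gene agree.

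For HLA-C the size of the estimate depended on the scaling. It read 5.98, 6.09 and 6.22 in shCtrl and 5.95, 6.10 and 6.24 in shXBP-1s. The 2 groups covered nearly the same range, and the log2 fold change was -0.0004 with a 95% interval from -0.21 to 0.21 (adjusted p = 0.998). On the authors' log2 values it was 0.10, and without scaling it was 0.27 and called higher (adjusted p = 0.0137).

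The non-classical chains had estimates of opposite sign. HLA-E read 4.00, 4.19 and 4.23 in shCtrl and 4.25, 4.32 and 4.36 in shXBP-1s, so that each knockdown array lay above each control array. The log2 fold change was 0.17 (SE 0.069), or 12.6% higher, and missed the threshold (adjusted p = 0.0850). Its sign was positive under all 20 alternative settings and it was called in 7 of them. These included the fit with the scan as a block, at 0.31 with an adjusted p of 0.0169, and the comparison within the scan that holds both groups, at 0.31 with an adjusted p of 0.0375. Both rest on shCtrl replicate 1, the lowest of the controls for this probe, and without that array the log2 fold change was 0.10.

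HLA-F had 2 probes. For the brighter (NM_018950) the arrays read 4.54, 4.47 and 4.47 in shCtrl and 4.39, 4.40 and 4.35 in shXBP-1s, giving a log2 fold change of -0.11 (SE 0.047, adjusted p = 0.0961). For the dimmer (NM_001098478) they read 0.84, 0.78 and 0.85 in shCtrl and 0.76, 0.62 and 0.56 in shXBP-1s, giving a log2 fold change of -0.18 (SE 0.060, adjusted p = 0.0418). In both probes the knockdown arrays lay below the controls without overlap. The changes of the probes differed by 0.07, with overlap between the groups in that difference (exact permutation p = 0.3). The call of the dimmer probe was lost when any 1 array other than shXBP-1s replicate 1 was left out, and with the scan as a block (log2 fold change -0.20, adjusted p = 0.127). Class I genes resemble each other in sequence, and how far each probe also binds the transcript of another class I gene was not tested.

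B2M, the light chain that every class I heavy chain needs, had 10 spots on each array that differed by an SD of 0.025 to 0.057 on the log2 scale. Averaged over the spots it read 5.88, 5.83 and 5.86 in shCtrl and 5.58, 5.69 and 5.82 in shXBP-1s. The knockdown arrays lay below the controls, although replicate 3 did so by less than 0.01. On the scaled values the SD was 0.12 for the knockdown arrays and 0.03 for the controls. The log2 fold change was -0.16 (SE 0.068, adjusted p = 0.101). It was -0.22 and called without shXBP-1s replicate 3 (adjusted p = 0.0199), and -0.10 without shXBP-1s replicate 1. The raw signal pointed the other way, with 40428.1 to 43940.9 in shCtrl and 44721.3 to 47109.4 in shXBP-1s, and without scaling the log2 fold change of B2M was 0.11.

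**Figure D3:**
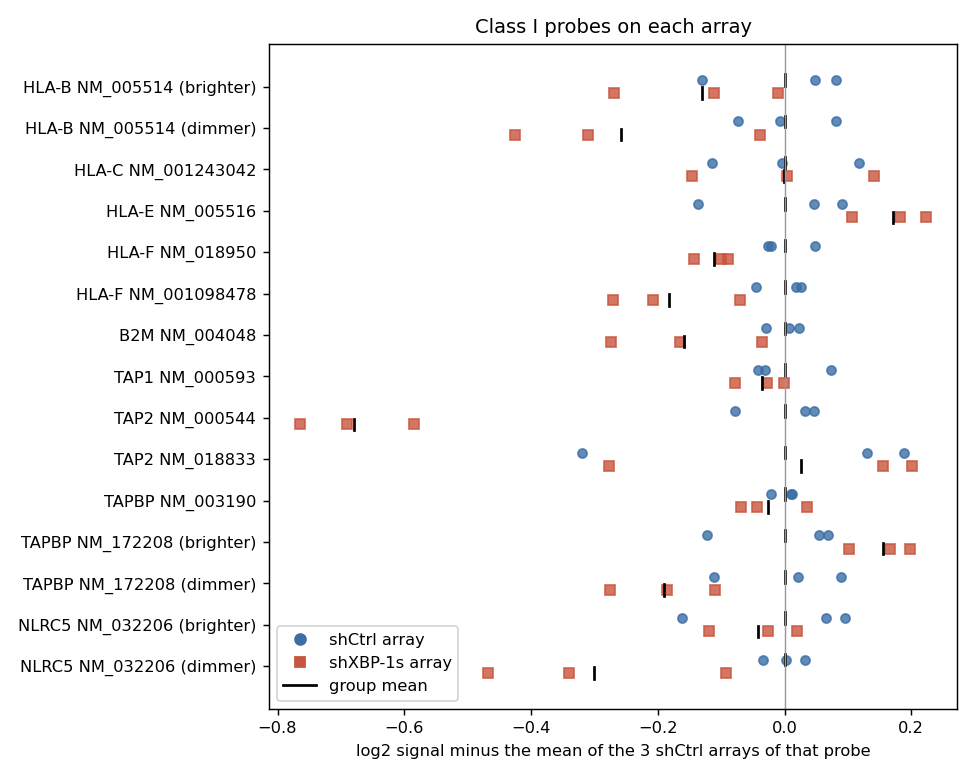
Log2 signal of each class I probe on each array, as the difference from the mean of the 3 shCtrl arrays of that probe (x axis). Circles are shCtrl arrays, squares are shXBP-1s arrays and black bars are group means. Only for TAP2 NM_000544 do the shXBP-1s arrays lie more than 0.5 below the shCtrl mean; for HLA-C and TAP1 the groups overlap.

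Of the 2 subunits of the peptide transporter, TAP2 was called lower and TAP1 was not. TAP1 read 3.50, 3.62 and 3.51 in shCtrl and 3.46, 3.52 and 3.54 in shXBP-1s, and its log2 fold change was -0.04 with a 95% interval from -0.15 to 0.08 (SE 0.051, adjusted p = 0.612). The main TAP2 probe (NM_000544) read 2.80, 2.91 and 2.92 in shCtrl and 2.11, 2.19 and 2.29 in shXBP-1s. All knockdown arrays thus lay well below all controls, and the log2 fold change was -0.68 (SE 0.061, adjusted p = 7.20e-05), so the TAP2 signal fell by 37.6%. This was 1.60-fold, and 12.6% of all tested probes had moved by at least as much.

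The call of TAP2 held under all 20 alternative settings other than the 2-fold minimum, which no member reached. Its raw signal was already lower, at 3877.2 to 4249.7 against 4779.6 to 5724.0. Over the 20 the log2 fold change lay between -0.73 and -0.41, with p-values from 1.78e-07 to 0.00446. With the scan as a block it was -0.60 (adjusted p = 0.00127), and within the scan that holds both groups -0.60 (adjusted p = 0.00395). Both set the knockdown arrays against shCtrl replicate 1 alone, which is assumed to vary like the other arrays.

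A second TAP2 probe, for the transcript NM_018833, was not called. It read -6.65, -6.20 and -6.14 in shCtrl and -6.18, -6.13 and -6.61 in shXBP-1s, near the lower end of what the arrays measured, with raw signals of 6.85 to 13.6. The groups overlapped, and the log2 fold change was 0.03 with a 95% interval from -0.48 to 0.53 (SE 0.22, adjusted p = 0.937). The change of the 2 TAP2 probes differed by -0.71 without overlap between the groups (exact permutation p = 0.1, the smallest that 3 arrays against 3 allow). Its sign turned in 5 of the 20 alternative settings, with -0.93 under normexp, and it was called in none. Which transcripts the fall covers cannot be read from a probe this dim.

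TAPBP, which encodes the tapasin that bridges TAP and the heavy chain, was measured by 3 probes that did not move together. The brightest (NM_003190) read 2.20, 2.17 and 2.20 in shCtrl and 2.23, 2.15 and 2.12 in shXBP-1s, giving a log2 fold change of -0.03 (SE 0.045, adjusted p = 0.692). The brighter of the NM_172208 probes read -0.94, -1.13 and -0.96 in shCtrl and -0.84, -0.81 and -0.91 in shXBP-1s, all knockdown arrays above all controls, but missed the threshold (log2 fold change 0.16, SE 0.065, adjusted p = 0.0926). The dimmer read -2.21, -2.01 and -2.08 in shCtrl and -2.21, -2.29 and -2.38 in shXBP-1s, giving a log2 fold change of -0.19 (SE 0.075, adjusted p = 0.0771). Although these 2 probes name the same transcript, their changes differed by 0.35, without overlap between the groups (exact permutation p = 0.1, the smallest possible). No TAPBP probe was called, and the probes together give no single direction for the gene.

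NLRC5 was dim, with raw signals between 44.8 and 133.2 on both of its probes. The brighter probe read -2.67, -2.93 and -2.70 in shCtrl and -2.89, -2.75 and -2.79 in shXBP-1s, giving a log2 fold change of -0.04 (SE 0.087, adjusted p = 0.732). The dimmer read -3.71, -3.67 and -3.64 in shCtrl and -3.77, -4.01 and -4.14 in shXBP-1s, and there each knockdown array lay below each control. Its log2 fold change of -0.30 (SE 0.11) was the largest among the members after TAP2 and just missed the threshold (adjusted p = 0.0566). The changes of the NLRC5 probes differed by 0.26, with a pooled SD of 0.21 and overlap between the groups (exact permutation p = 0.3, where 0.1 is the smallest possible). Whether the probes agree cannot be settled by this test.

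Because the 75th percentile was higher on the shXBP-1s arrays, the members were set side by side under other scalings. Quantile normalization called 5 member probes, with the dimmer NLRC5 probe, B2M and TAP2 lower and HLA-E and the brighter TAPBP NM_172208 probe higher. Of all 27624 tested probes it called 11917. The brighter NLRC5 probe (-0.037), TAPBP NM_003190 (0.033) and the dimmer TAPBP NM_172208 probe (-0.165) were not called. The authors' log2 values called 4 member probes, with the same NLRC5 probe and TAP2 lower and HLA-E and the same TAPBP probe higher. They called 11916 of all tested probes. Without scaling, 4 member probes were called, TAP2 lower and HLA-E, HLA-C and the same TAPBP probe higher, against 11190 of all tested probes. The median of all tested probes then stood at 0.25 and that of the members at 0.16. The split of all calls then turned to 1896 lower and 9294 higher, from 6423 lower and 5093 higher. With normexp background correction the median of all tested probes was -0.41 and that of the members -0.0054. There TAP2 was the 1 member probe called, against 4507 of all tested probes. In all of these TAP2 was lower and HLA-E had a positive sign, while HLA-C, B2M and TAP1 changed sign between them.

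**Figure D4:**
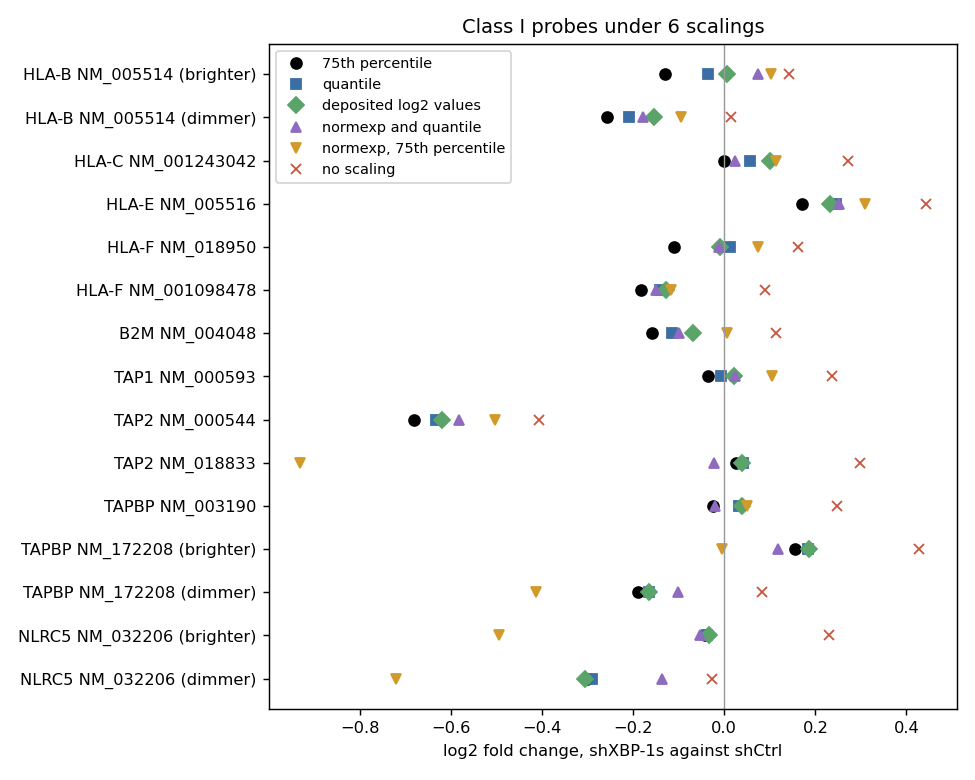
Log2 fold change of shXBP-1s against shCtrl (x axis) for the 15 class I probes under 6 ways of scaling the arrays, 1 symbol per scaling. TAP2 NM_000544 stays between -0.68 and -0.41 and HLA-E between 0.17 and 0.44, while most other probes lie on both sides of 0.

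Genes that act around the class I chains in the pathway were taken from 3 lists. Of these 31 genes, 30 were tested by their brightest probe, and 15 were lower, 8 higher and 7 not called. Over all 16821 tested genes by their brightest probe, 27.5% were lower and 18.9% higher. The median log2 fold change of the 30 genes was -0.16, against -0.04 over all tested genes. Without scaling of the arrays, 6 were lower and 11 higher.

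In peptide supply and loading, 7 of 12 genes were lower, 1 was higher and 4 were not called, and the median log2 fold change was -0.23. All 3 catalytic subunits of the immunoproteasome, which cuts peptides with ends suited to class I, were lower. PSMB10 fell from 4.62 ± 0.06 to 3.82 ± 0.07 (SD, n = 3 each), a log2 fold change of -0.80 (adjusted p = 2.03e-05), PSMB9 by 0.42 (adjusted p = 1.04e-04) and PSMB8 by 0.40 (adjusted p = 0.00245). The proteasome activator subunit genes PSME2 (-0.49, adjusted p = 8.69e-04) and PSME1 (-0.22, adjusted p = 0.0288) were lower as well. So were ERAP1, the peptidase that trims peptides in the endoplasmic reticulum (-0.35 by its brighter probe, adjusted p = 3.52e-04, and -1.20 by the other, adjusted p = 1.12e-05), and TAPBPL, which encodes the peptide editor TAPBPR (-0.24, adjusted p = 0.0153). The chaperones of the loading complex did not follow them. PDIA3, the partner of tapasin, was higher by its brighter probe (0.26, adjusted p = 0.0110) and at 0.12 by the other (adjusted p = 0.106). CALR (0.13, adjusted p = 0.199) and CANX by its brighter probe (0.07, adjusted p = 0.381) were not called. The other CANX probe was at -0.13, below the controls without overlap but not called (adjusted p = 0.110). With the scan as a block the calls of PSME1, TAPBPL and PDIA3 were lost, at log2 fold changes of -0.16, -0.16 and 0.16. Without scaling, PSMB9 (-0.15), PSMB8 (-0.13) and ERAP1 (-0.07) kept their sign but not their call, and PSME1 (0.053) and TAPBPL (0.035) turned positive. Under normexp PSME2, PSME1 and TAPBPL were negative and not called (adjusted p = 0.451, 0.262 and 0.343).

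TAP1, TAP2, PSMB8 and PSMB9 lie side by side on chromosome 6, in the order TAP2, PSMB8, TAP1 and PSMB9. Along this order the log2 fold changes were -0.68, -0.40, -0.04 and -0.42, so TAP1 stood between 2 genes that were called lower. TAP1 and PSMB9 are known to share a bidirectional promoter. The change of each of the other 3 genes differed from that of TAP1, by -0.64, -0.37 and -0.38, with no overlap between the groups when the difference was taken within each array (exact permutation p = 0.1 each, the smallest possible). A factor that multiplies all signals of an array cancels in such a difference, whereas one that depends on signal or background does not. TAP1 hardly changed and the other 3 genes were already lower without overlap, so these differences add little to the single values. How many of all tested probes separate from TAP1 in this way was not counted. By themselves, 52.4% of all tested probes did not overlap between the groups.

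Regulators of class I genes moved in both directions. Of 16 genes 7 were lower, 6 higher and 3 not called, and the median log2 fold change was 0.02. The factors that act with NLRC5 at the class I promoter were split. The NF-Y subunit gene NFYB fell from -0.69 ± 0.04 to -1.79 ± 0.07 (SD, n = 3 each), a log2 fold change of -1.10 (adjusted p = 5.41e-06) and the 1 change of at least 2-fold among the brightest probes of these lists, while NFYA was higher (0.75, adjusted p = 4.06e-05). The dimmer NFYA probe stood at 0.23 (adjusted p = 0.0117). By the 2-fold rule 2.88% of all tested genes were lower and 2.3% higher. All 3 RFX subunit genes were lower, RFXAP by 0.73 (adjusted p = 1.86e-05), RFXANK by 0.47 (adjusted p = 7.57e-05) and RFX5 by 0.42 (adjusted p = 4.34e-04), although the other RFX5 probe stood at 0.006. CREB1 was lower too (-0.50, adjusted p = 4.49e-05). IRF1, which carries the interferon gamma signal to the class I genes, was lower (-0.71, adjusted p = 5.46e-04). The 6 genes that were higher were NFYA, IRF2, JAK2, NFKB1, RELA and IFNGR2. Without scaling, the calls of RFXANK (-0.19), RFX5 (-0.14) and CREB1 (-0.23) were lost.

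Of the other chains that pair with beta-2-microglobulin, FCGRT, which encodes the neonatal Fc receptor, was lower (-0.58, adjusted p = 1.02e-04). MR1, which presents vitamin B metabolites to MAIT cells, was higher by its brighter probe (0.39, adjusted p = 2.47e-04) and at 0.10 by the other (adjusted p = 0.321). CD1D was not well above background on any array.

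**Figure D5:**
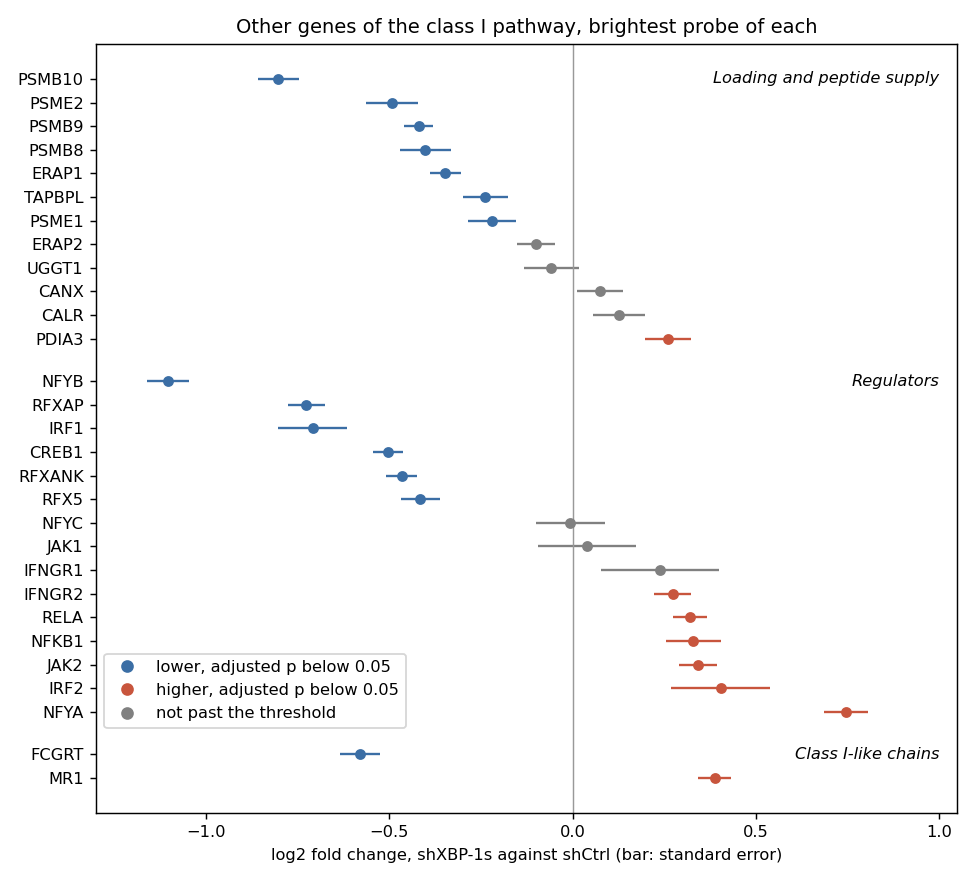
Log2 fold change of shXBP-1s against shCtrl with its standard error (x axis) for 29 of the 30 further genes of the class I pathway, each by its brightest probe, in 3 lists. Blue marks genes called lower, red genes called higher and grey genes past no threshold. The 3 immunoproteasome genes and PSME2 lie at the lower end of the first list, and the regulators are split between both sides.

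Over the 6 arrays, the genes whose pattern was most like that of the brighter HLA-B probe were FGF16, TNFRSF17 and PHAX (Pearson r 0.995, 0.991 and 0.976). For TAP1 they were ALX4, BCLAF3 and RIMBP2 (r 0.987, 0.967 and 0.965). They are the highest of 16820 genes over only 6 arrays that share their scaling, and are given as a description. None of these 6 genes was called, with log2 fold changes between -0.22 and -0.02.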

How the data were processed

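Gene expression was measured on 6 Agilent 1-colour arrays. For each array the authors deposited Agilent Feature Extraction 11.0.1.1 output, with a background-subtracted intensity per spot and no normalization between arrays. A table of log2 values was deposited as well, and the submitters' processing notes name RMA. The labels describe a NimbleGen labelling procedure, whereas the paper and the files give an Agilent array. The methods name two-tailed t-tests and a p of 0.05 for the whole paper, and no normalization or threshold for the arrays in particular.

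From the intensities, the log2 signal minus the 75th percentile of its array over non-control spots was taken. Flagged non-control spots (230 to 377 per array, which held 44495 spots including 1377 controls) were dropped before averaging over each probe. A probe counted as well above background on an array when over 50% of its spots were, and 19 probes with no unflagged spot on some array were dropped. Testing used R 4.3.3 and limma 3.58.1 (lmFit, eBayes with trend) on all 6 samples and on the 27624 probes that passed in the whole of either group, 2-sided, Benjamini-Hochberg adjusted over these probes; every adjusted p in the text is from this test unless another is named. Calls were made at an adjusted p below 0.05. Single differences were tested by exact permutation over samples, 2-sided. Symbols came from RefSeq accessions (GRCh38.p14), with 25771 of 34127 probes matched, and promoter windows from RefSeq. The array annotation names another build, so probe positions are not given. No 2 arrays held identical values. Precision is limited by the number of arrays.

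In simulated data for this comparison on 27624 probes, 200 of which were shifted by 0.3 to 1.5 on the log2 scale, limma found 141 (70.5%) and made 3 other calls.

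Named genes were XBP1, every member probe, in each list every gene called at 2-fold or more and up to 5 more with the smallest p, and the 3 genes most like HLA-B and TAP1 over the arrays. CALR, CANX, PDIA3, TAPBPL, PSME1, IRF1 and the remaining higher regulators were named after their values were seen. The members and lists were chosen with earlier results of these data known. Alternatives were normexp (offset 50, applied to median spot signals, as there is no mean signal column), normexp with quantile normalization, quantile normalization, the authors' log2 values, other filters on dim probes, flagged spots kept, limma without trend, the methods' t-test, the replicate number or the scan as a block, leaving out each array, a 2-fold minimum, the mean over probes, and, added after seeing the data, no scaling. Protein sequences were not analysed here, and 1 gene of the lists is counted but not reported by name.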

Additional observations from a re-analysis of the deposited data

How the results depend on the processing

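With 3 arrays per group and changes mostly under 0.30 on the log2 scale, the sign of most class I probes depended on the scaling, and the causes of the changes below were not tested beyond what each setting does by construction. Arrays and scans are confounded in part, since 1 scan holds 1 control array.

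The 2 member probes called became 1 under normexp, without the filter on dim probes, without the trend and by the methods' t-test after adjustment, 4 on the authors' log2 values and without scaling (added after the data were seen), 5 under quantile normalization and 0 with a 2-fold minimum, and lay between 1 and 3 with each array left out. They were 2 with the scan as a block, within the scan that holds both groups, with flagged spots kept and with the filter on all 6 arrays, and 3 with normexp and quantile normalization and by the unadjusted t-test. Of all tested probes 11516 were called, 4507 under normexp, 11917 under quantile normalization, 11916 on the authors' log2 values and 11190 without scaling. They were 1354 with a 2-fold minimum and 8633 to 12782 with each array left out. The 23 pathway genes called became 1 with a 2-fold minimum, 20 to 22 with each array left out, and 17 to 24 under the others.

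The replicate numbers did not pair the samples (correlations of same-numbered deviations -0.016, 0.117 and -0.116; only replicate 2 correlated best with its own number). With the replicate block 3 member probes (HLA-E added), 11116 probes and 22 pathway genes were called.

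Log2 fold changes that changed sign were as follows. On the authors' log2 values they were 0.0054 for the brighter HLA-B probe, 0.10 for HLA-C, 0.022 for TAP1 and 0.040 for TAPBP NM_003190. Under quantile normalization they were 0.057 for HLA-C, 0.013 for HLA-F NM_018950 and 0.033 for TAPBP NM_003190. Under normexp with quantile normalization they were 0.074 for the brighter HLA-B probe, 0.024 for HLA-C, 0.024 for TAP1 and -0.022 for TAP2 NM_018833. Under normexp they were 0.0066 for B2M, 0.10 for the brighter HLA-B probe, 0.11 for HLA-C, 0.074 for HLA-F NM_018950, 0.11 for TAP1, -0.93 for TAP2 NM_018833, 0.050 for TAPBP NM_003190 and -0.0054 for the brighter TAPBP NM_172208 probe. With the scan as a block, and within the scan that holds both groups, they were 0.11 for HLA-C and 0.0057 for TAP1. Without scaling they were 0.11 for B2M, 0.14 and 0.014 for the HLA-B probes, 0.27 for HLA-C (adjusted p = 0.0137, limma), 0.090 for HLA-F NM_001098478, 0.16 for HLA-F NM_018950, 0.23 for the brighter NLRC5 probe, 0.24 for TAP1, 0.25 for TAPBP NM_003190, 0.083 for the dimmer TAPBP NM_172208 probe, 0.053 for PSME1 and 0.035 for TAPBPL. With each array left out, HLA-C ranged from -0.071 to 0.072, TAP1 from -0.056 to 0.00079, the brighter NLRC5 probe from -0.12 to 0.0054 and TAP2 NM_018833 from -0.13 to 0.18.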
